A study of Mus musculus with 27 samples.

Results

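The genes described here are 9 heterochronic genes of the mouse: Lin28a, Lin28b, Trim71, Igf2bp1, Igf2bp2, Igf2bp3, Hmga1, Hmga2 and Arid3b. They were chosen by name, out of 23279 genes in the expression table, with their change between limb bud stages and their level in cultured limb mesenchyme in view. The table came from RNA-seq of limb buds, of other embryonic tissues and of limb mesenchyme grown from mouse embryonic stem (ES) cells, and 26 of its 27 libraries are used, in 9 groups. Forelimb buds (FLB) and hindlimb buds (HLB) of Slc:ICR embryos were taken at an early stage, labelled E10.0, and at E10.5, and branchial arch (BA), cardiac tissue (Ca) and tail bud (TB) at E10.5. The ES-derived groups, ES–FLB and ES–HLB, were cells of limb bud organoids at culture day 9, grown from 1 line, EB5 Hand2::GFP +/-, and sorted for the GFP reporter of Hand2, a limb mesenchyme transcription factor. Both organoid types received BMP4 and matrigel early and a BMP inhibitor and Wnt3 late; those of the forelimb protocol were exposed to retinoic acid and those of the hindlimb protocol to a retinoic acid antagonist. Each group had 3 libraries, except that 1 E10.5 HLB library (replicate 2) was left out because 3936 of 3948 genes expressed in its sister libraries on several chromosomes were at 0 in it, which leaves 2. For embryonic groups the study's methods describe tissue cut from 3 embryos; p-values measure the spread between these libraries only. The labels give the early stage as E10.0 for both limb types, whereas the study's figure text places the early forelimb bud before the early hindlimb bud. The age of the early limb buds and the interval to E10.5 may therefore differ between limb types.

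Heterochronic genes set the timing of developmental transitions and were worked out in the nematode, where lin-28 and lin-41 (the relative of Trim71) hold early fates and the microRNA let-7 ends them. In mammals the RNA-binding proteins LIN28A and LIN28B bind let-7 precursors and keep them from being processed, and let-7 in turn represses the mRNAs of both Lin28 genes, Trim71, Hmga2, Arid3b and the Igf2bp family. The genes are typical of early embryos, germ cells and stem cells, and their mRNAs decline in most tissues as organs form.

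The sequences through which let-7 could pair with these mRNAs are shown first, because regulation by let-7 is part of what groups these genes. Sites in them are therefore a description of the set and not a finding. Of 1679 mature mouse miRNAs in the RefSeq set (build GRCm38.p6), 10 named let-7 or miR-98 carry the seed GAGGUAG at bases 2 to 8, in capitals here, and differ only outside it in the 4 examples given.
let-7a-5p: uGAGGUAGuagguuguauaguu
let-7d-5p: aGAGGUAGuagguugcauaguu
let-7g-5p: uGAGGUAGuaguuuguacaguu
miR-98-5p: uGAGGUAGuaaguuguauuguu
The 7 letters CTACCTC, the reverse complement of that seed, were searched on the sense strand of the longest GENCODE M21 3′ UTR of each protein-coding gene. All 9 genes held at least 1 copy, against 9.0% of 21020 genes. For each gene 1 copy is printed below within 25 bases of 3′ UTR, the match in capitals.
Lin28a: cacagcctgttgaaCTACCTCattt
Lin28b: cccgggcgggaagtCTACCTCatgc
Trim71: acattgcctaagtcCTACCTCagct
Igf2bp1: ctgtgcgaagtaaaCTACCTCaagg
Igf2bp2: cacacaaataaaagCTACCTCaggt
Igf2bp3: gcatttttactcaaCTACCTCaggt
Hmga1: cctctgttcacaaaCTACCTCtgga
Hmga2: ccgacattcaatttCTACCTCagca
Arid3b: atttcaataaagctCTACCTCttca
The match was followed by an A, the base that lengthens a let-7 site, in at least 1 copy in 7 of the 9 genes; in Hmga1 and Arid3b it was not.

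Long 3′ UTRs hold more such letters by length alone, so each gene is set beside 3′ UTRs within 20% of its own length. Lin28b held 4 copies in 4445 bases, a number reached by 0.2% of 1271 UTRs of like length. Trim71 held 4 in 5512 bases, reached by 0.5% of 793 UTRs. Igf2bp1 held 4 in 6337 bases, reached by 0.4% of 564 UTRs. Hmga2 held 4 in 3014 bases, reached by 0.1% of 2245 UTRs, and Lin28a held 2 in 2775 bases, reached by 2.1% of 2429 UTRs. The remaining genes had 1 copy, as did between 8.1% (for Hmga1) and 13.4% (for Arid3b) of UTRs of their length or more. These counts describe letters in the annotation; no measurement of let-7 or of its binding is used here.

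On GRCm38 the printed sites lie in the last exon of each gene. They are at chr4:134005186-134005210 in Lin28a, chr10:45381019-45381043 in Lin28b, chr9:114512469-114512493 in Trim71 and chr11:95961775-95961799 in Igf2bp1, each on the minus strand. The site of Igf2bp2 is at chr16:22059470-22059494, that of Igf2bp3 at chr6:49086784-49086808, that of Hmga2 at chr10:120364221-120364245 and that of Arid3b at chr9:57790358-57790382, again on the minus strand. Hmga1 is the only plus-strand gene of the set, with its site at chr17:27563278-27563302. Parts of 7 of the 9 genes overlap a gene on the opposite strand, Lin28b and Igf2bp2 being the exceptions; over whole genes, introns included, Gm17231 shares 43943 bases with Arid3b, 1700006J14Rik 20180 with Hmga2, Malsu1 1529 with Igf2bp3 and C130032M10Rik 728 with Trim71. The kit keeps strand, but whether the counting used it is not given in the sources used here.

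Levels are given as scaled CPM, read counts relative to the library's total of 1000000: the deposited CPM after a further scaling that equalises the bulk of genes between libraries. Depth, estimated from the step between low values, was 5543746 to 22142313 reads per library, highest in the early limb buds (19642258 to 22142313) and lowest at E10.5 (5543746 to 5908858 in both limb bud types). Stage and depth therefore cannot be told apart by design. The smallest value on which a gene rests, Lin28a in ES–FLB replicate 2, stood for 23 reads. Limb mesenchyme markers (11 genes such as Prrx1, Twist1 and Hand2) summed to 1951 to 2252 CPM in the limb buds and to 2470 to 2616 CPM in the sorted ES-derived cells, against 1794 to 1906 CPM in BA and 584 to 815 CPM in Ca and TB, so the list does not set the limb far apart from the arch. Its genes were unequal in culture: Lhx2 stood at 6.63 ± 1.46 CPM in ES–FLB against 113 ± 22.0 CPM in early FLB, and Lhx9 at 4.76 ± 1.04 against 127 ± 33.8 CPM (SD, n = 3 each). Against the early limb bud of the same type, 4 of the 11 were at least 2-fold lower without overlap in ES–FLB and 5 in ES–HLB. Of all genes tested, 12.1% and 9.19% were lower by that count. In each culture 2 of the 11 were at least 2-fold higher without overlap, for which no share over all genes is given here. The 6 cardiac markers summed to 19420 to 23320 CPM in Ca, the 6 tail bud markers to 236 to 283 CPM in TB and the 4 branchial arch markers to 364 to 381 CPM in BA, where the limb bud libraries held at most 19.7, 6.28 and 42.4 CPM of each list.

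**Figure D1:**
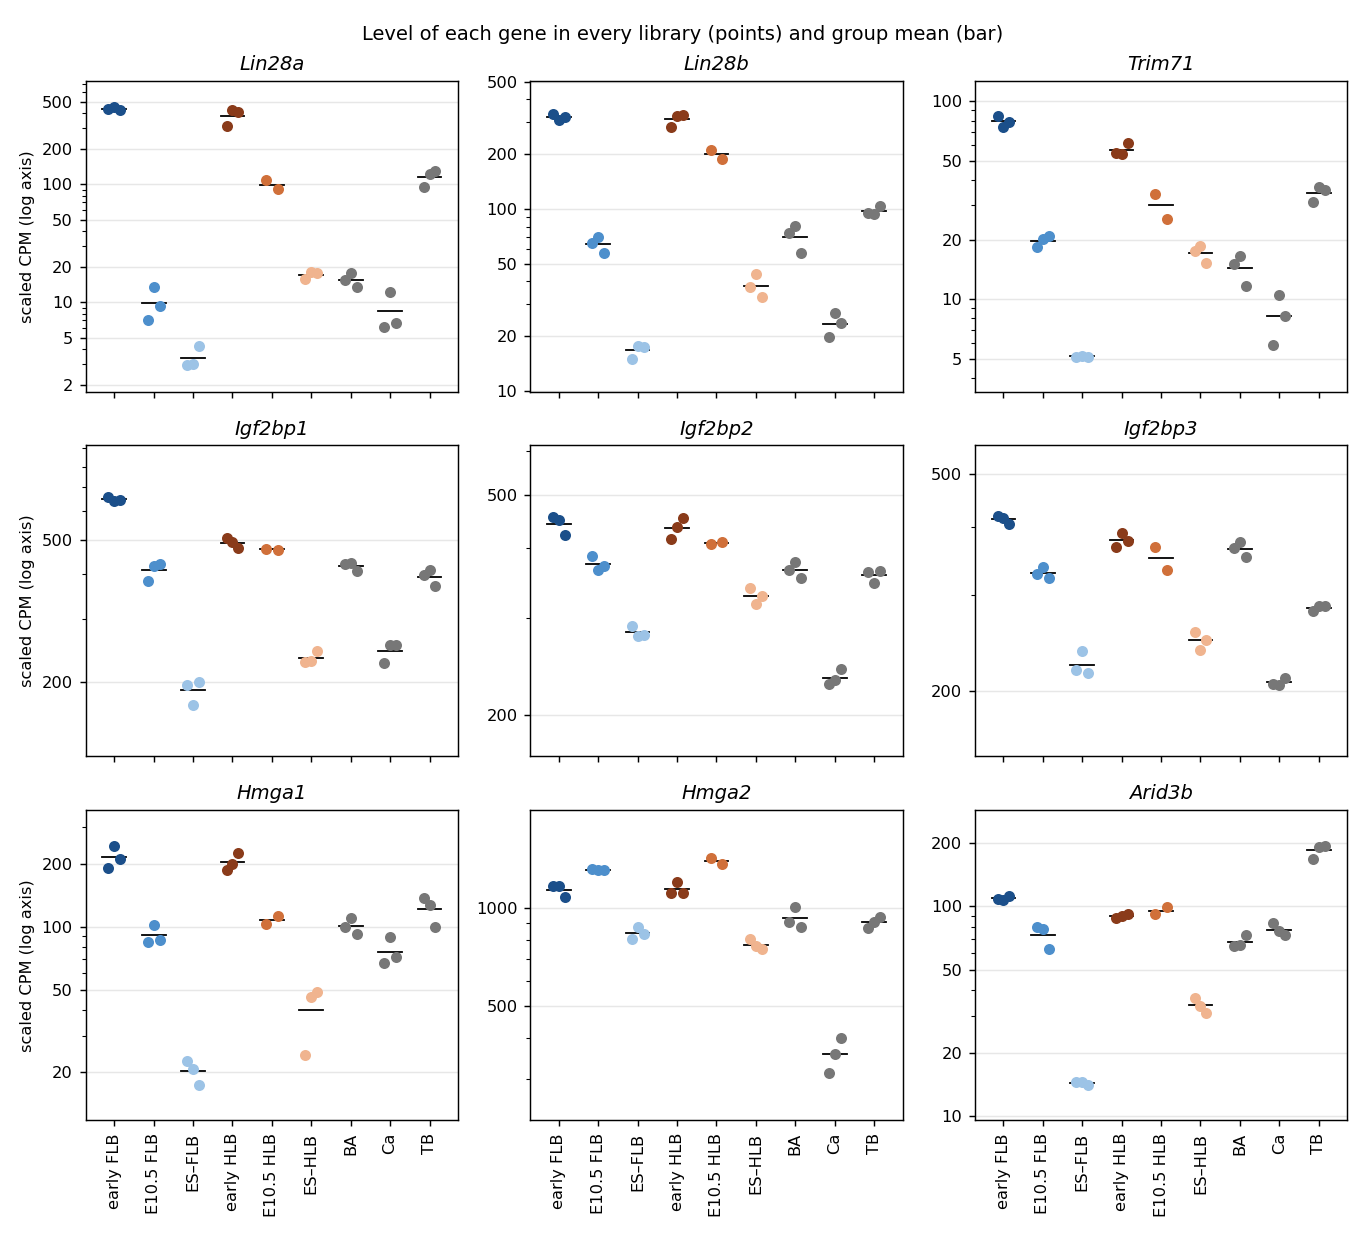
Scaled CPM on a log axis for each of the 9 genes (panels) in every library (points), with the group mean as a bar; groups are on the x axis. Lin28a, Lin28b and Trim71 are highest in the early limb buds and lowest in ES–FLB, and Hmga2 is highest in the E10.5 limb buds.

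Lin28a showed the widest range of the set. In early FLB it stood at 430, 448 and 427 CPM and in early HLB at 310, 423 and 407 CPM. At E10.5 the FLB libraries held 7.02, 13.4 and 9.24 CPM and the HLB libraries 108 and 91.0 CPM. The forelimb and hindlimb buds were thus close at the early stage and far apart at E10.5, with no overlap between stages in either limb. The mean was 44.0-fold lower at E10.5 in FLB (435 ± 11.4 against 9.89 ± 3.25 CPM, SD, n = 3 each) and 3.83-fold lower in HLB (380 ± 61.2, n = 3, against 99.3 ± 11.8 CPM, n = 2). In ES–FLB it stood at 2.92, 2.99 and 4.27 CPM and in ES–HLB at 15.6, 18.1 and 17.7 CPM. Both ES-derived types therefore lay below the E10.5 limb bud of the same type, ES–FLB 2.92-fold and ES–HLB 5.80-fold. In bulk tissue, fewer cells that express a gene and less RNA per cell cannot be told apart.

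Lin28b, the paralogue that also blocks let-7 maturation, was likewise lower at E10.5 than at the early stage, with smaller differences between stages. It was lower again in culture. It stood at 333, 309 and 320 CPM in early FLB and at 281, 326 and 328 CPM in early HLB. At E10.5 it stood at 65.0, 70.4 and 57.7 CPM in FLB and at 212 and 190 CPM in HLB. The mean was 4.98-fold lower at E10.5 in FLB and 1.55-fold lower in HLB. In culture ES–FLB held 15.1, 17.8 and 17.5 CPM and ES–HLB 37.3, 43.9 and 32.8 CPM. Both were again below the E10.5 limb bud of the same type, ES–FLB 3.83-fold and ES–HLB 5.29-fold. The step for ES–FLB was larger than that of Lin28a.

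Trim71, a ubiquitin ligase and mRNA repressor of stem cells and the early embryo, stood at 84.7, 74.3 and 78.4 CPM in early FLB and at 54.7, 54.0 and 61.8 CPM in early HLB. It was lower at E10.5 without overlap, at 18.3, 20.05 and 20.9 CPM in FLB and 34.2 and 25.4 CPM in HLB, which is 4.01-fold and 1.91-fold below the early stage. The ES–FLB libraries held 5.11, 5.19 and 5.12 CPM, and the ES–HLB libraries 17.6, 18.7 and 15.2 CPM. ES–HLB did not separate from E10.5 FLB in the order of levels, whereas ES–FLB was below every other group.

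The Igf2bp genes encode RNA-binding proteins that stabilise and localise mRNAs such as those of Igf2, Actb and Myc, and their levels differed less. Igf2bp1 stood at 660, 639 and 645 CPM in early FLB and at 383, 421 and 426 CPM in E10.5 FLB, 1.58-fold lower and without overlap. In HLB the early libraries held 506, 492 and 473 CPM and those at E10.5 held 470 and 468 CPM, a ratio of 1.04. In culture it stood at 195, 172 and 199 CPM in ES–FLB and at 227, 228 and 244 CPM in ES–HLB, 2.17-fold and 2.02-fold below the E10.5 limb buds. Igf2bp2 and Igf2bp3 had group means between 234 and 443 CPM and between 208 and 413 CPM. Their means differed between stages by at most 1.25-fold, and over the 9 groups by 1.89-fold and 1.99-fold. The lowest mean of each was in Ca, and the ES-derived groups came next.

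Hmga2, which encodes an architectural chromatin protein of growing embryonic tissue, went the other way with stage. It stood at 1168, 1169 and 1077 CPM in early FLB and at 1320, 1310 and 1304 CPM in E10.5 FLB, 1.15-fold higher. In HLB it stood at 1114, 1202 and 1113 CPM early and at 1423 and 1368 CPM at E10.5, 1.22-fold higher. The stages did not overlap in either limb, and Hmga2 was the only gene of the set with a higher mean at E10.5 in both limbs. In culture it was lower, at 803, 877 and 831 CPM in ES–FLB and 803, 766 and 751 CPM in ES–HLB.

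Hmga1 encodes the related chromatin protein and was lower at E10.5, but its level is uncertain, since how reads that match more than 1 place in the genome were counted is not given in the sources used here. It stood at 191, 245 and 211 CPM in early FLB and at 84.6, 102 and 86.4 CPM in E10.5 FLB, 2.37-fold lower. In HLB it stood at 187, 201 and 225 CPM early and at 103 and 113 CPM at E10.5, 1.89-fold lower. In culture it stood at 22.6, 20.7 and 17.4 CPM in ES–FLB and at 24.3, 45.9 and 48.7 CPM in ES–HLB, below the limb buds of the same type, and ES–HLB replicate 1 lay below the other two.

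Arid3b, a DNA-binding protein of early mesoderm and a known let-7 target, differed between stages in FLB and hardly in HLB. It stood at 108, 107 and 112 CPM in early FLB and at 79.6, 77.7 and 62.4 CPM in E10.5 FLB, 1.49-fold lower. In HLB it stood at 88.1, 89.9 and 92.5 CPM early and at 92.3 and 98.9 CPM at E10.5, where the stages overlapped. The cultured cells were far lower, at 14.5, 14.5 and 14.1 CPM in ES–FLB and 36.4, 33.6 and 31.1 CPM in ES–HLB.

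Compared between genes per kilobase of annotated exons, the order of the set was different at each stage. In early FLB Hmga2 was highest at 168 CPM per kb, followed by Lin28a at 109, Hmga1 at 101, Igf2bp1 at 67.0, Igf2bp2 at 59.9, Igf2bp3 at 50.7 and Lin28b at 35.4. Arid3b stood at 13.7 and Trim71 at 8.48 CPM per kb. In E10.5 FLB Hmga2 stood at 194 CPM per kb, Lin28a at 2.48 and Trim71 at 2.12. On this scale Lin28a thus stood next to the top in the early forelimb bud and next to the bottom at E10.5, with Lin28b above it at 7.10 CPM per kb.

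The stage and culture values above are among those by which the genes were chosen, so they are given as a description, with no test. A gene was counted where the groups did not overlap and the difference was at least 2-fold on log2(scaled CPM + 0.5), the scale of the fold changes on log values that follow. Between stages in FLB 4 of the 9 genes were lower by that count (Lin28a, Lin28b, Trim71 and Hmga1), and 4.65% of 12767 genes were. In HLB it was Lin28a alone, and 2.03% of 12400 genes. Hmga1 and Trim71 lay just short of the 2-fold line in HLB, at -0.92 and -0.93 on the log2 scale.

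Against the early limb buds, 6 genes were lower in ES–FLB (Lin28a, Lin28b, Trim71, Igf2bp1, Hmga1 and Arid3b; 12.1% of all genes tested) and 6 in ES–HLB, again Lin28a, Lin28b, Trim71, Igf2bp1, Hmga1 and Arid3b (9.19%). The differences ran from -6.82 (Lin28a) to -0.44 (Hmga2) in ES–FLB and from -4.42 (Lin28a) to -0.41 (Igf2bp2) in ES–HLB on the log2 scale. Against the E10.5 limb buds, 6 genes were lower in ES–FLB (7.15% of all genes tested) and 5 in ES–HLB (5.04%), where Trim71 was short of the line at -0.77. Igf2bp1 lay just inside it there, at -1.01.

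**Figure D2:**
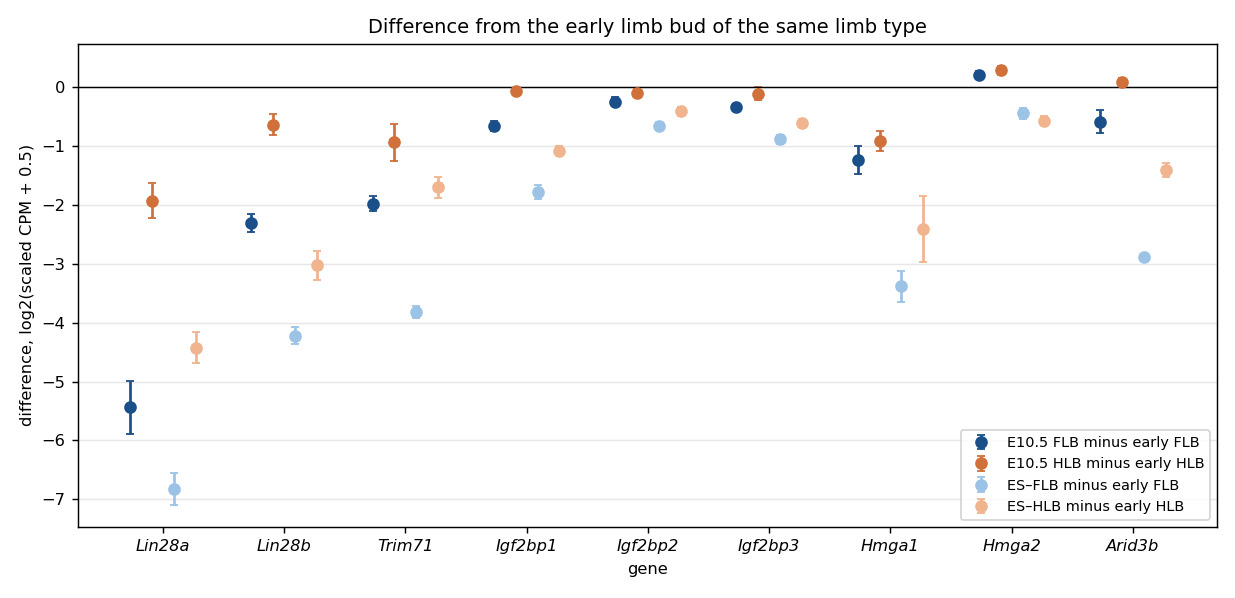
Difference from the early limb bud of the same limb type on log2(scaled CPM + 0.5), for the E10.5 limb bud and for the ES-derived mesenchyme; bars are the SD of the difference from the spread of libraries in both groups. Lin28a is at -5.44 in E10.5 FLB and at -1.92 in E10.5 HLB, and Hmga2 alone is above 0 at E10.5 in both limbs.

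The ES-derived cells were sorted and the limb buds were whole tissue, and markers of other cells moved with that contrast. The 6 red blood cell markers summed to 5.61 to 7.92 CPM in sorted ES–FLB cells and reached 85.0 to 160 CPM in sorted ES–HLB cells, against 2215 to 6500 CPM in the limb buds. The 6 endothelial markers summed to 27.2 to 45.0 CPM in the sorted cells and 256 to 340 CPM in limb buds. The 8 surface epithelium markers summed to 111 to 171 CPM in ES–FLB, 224 to 242 CPM in ES–HLB and 274 to 472 CPM in limb buds. The 8 pluripotency markers, which mark cells that also make Lin28a and Trim71, summed to 18.4 to 25.1 CPM in ES–FLB and 76.6 to 111 CPM in ES–HLB, against at most 2.40 CPM in limb buds. The part of these cells in the differences was not tested.

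Whether the limb types differed was asked at each stage and in culture. These comparisons draw on the same libraries whose values were in view when the genes were chosen. Their p-values, from limma with Benjamini–Hochberg adjustment over all genes tested, describe only the spread between libraries. They are no independent support for the pattern. In the early limb buds the types were close, though limb type and a possible difference in age cannot be told apart there. Trim71 (-0.47 ± 0.07, adjusted p = 0.000851), Igf2bp1 (-0.40 ± 0.04, adjusted p = 0.000128) and Arid3b (-0.28 ± 0.05, adjusted p = 0.00231) were lower in HLB than in FLB (log2 difference ± SE; 3 of 9 genes, 11.0% of all genes tested). Lin28a differed by -0.21 ± 0.12 (adjusted p = 0.267) and Lin28b by -0.04 ± 0.06 (adjusted p = 0.671).

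At E10.5 the differences went toward higher levels in HLB, also for Lin28a and Lin28b, which had not passed in the early limb buds. Higher in HLB were 8 of the 9 genes, among 12.2% of all genes tested. Lin28a was 10.04-fold higher (log2 difference 3.31 ± 0.28, adjusted p = 0.00111) and Lin28b 3.12-fold higher (1.64 ± 0.07, adjusted p = 2.24e-23). Without FLB replicate 3 the difference of Lin28a was 3.28 ± 0.44 with an adjusted p of 0.063. Trim71 was 1.51-fold and Arid3b 1.31-fold higher, whereas the 5 remaining genes differed by 1.19-fold or less, Igf2bp3 (1.06-fold, adjusted p = 0.174) not past the threshold of 0.05. Without HLB replicate 1, or without FLB replicate 3, the count was 5 of 9; with limma's trend and robust estimation turned off it was 2, Lin28a and Lin28b.

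Among the mesenchymes grown in culture, 7 of 9 genes were higher in ES–HLB than in ES–FLB, against 13.1% of all genes tested. Lin28a was 5.05-fold higher (2.19 ± 0.16, adjusted p = 1.21e-12), Trim71 3.34-fold (1.64 ± 0.14, adjusted p = 3.82e-11), Arid3b 2.34-fold (1.20 ± 0.10, adjusted p = 1.67e-11) and Lin28b 2.26-fold (1.15 ± 0.10, adjusted p = 1.94e-10). The 3 Igf2bp genes were 1.11-fold to 1.23-fold higher. Hmga2 was 1.08-fold lower in ES–HLB (adjusted p = 0.0116; 12.0% of all genes were lower). Hmga2 did not pass without ES–FLB replicate 2 or ES–HLB replicate 3 (adjusted p = 0.137 and 0.0925). Igf2bp3 did not pass without ES–FLB replicate 1 or 3 or ES–HLB replicate 1 (adjusted p = 0.0514, 0.0877 and 0.0754). Hmga1 was 1.96-fold higher with an adjusted p of 0.138. Without ES–HLB replicate 1 it passed (1.21, adjusted p = 1.95e-10). The pluripotency markers given above were higher in ES–HLB in the same libraries.

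**Figure D3:**
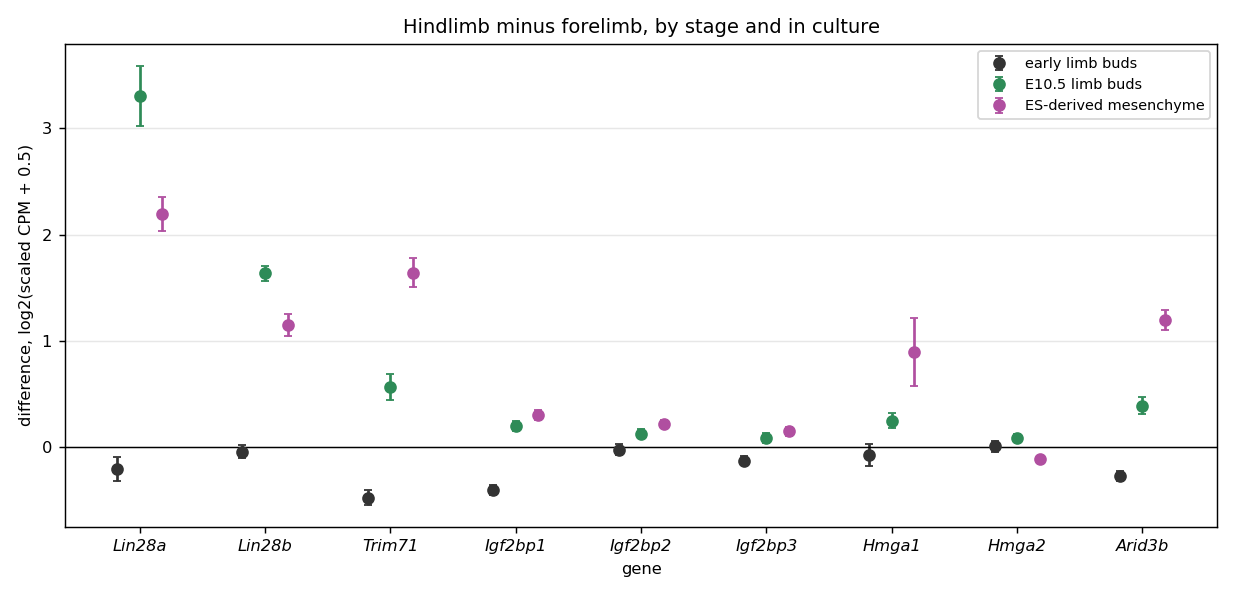
Hindlimb minus forelimb difference on log2(scaled CPM + 0.5), with its standard error from limma, in early limb buds, E10.5 limb buds and ES-derived mesenchyme. Lin28a lies near 0 early, at 3.31 at E10.5 and at 2.19 in culture; the Igf2bp genes and Hmga2 stay near 0, with Igf2bp1 in the early limb buds the farthest below it at -0.40.

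The stage change in HLB minus that in FLB is made of the values by which the genes were chosen, so it is given as a description, with no test. It was above 0 for all 9 genes. It was 3.51 ± 0.34 for Lin28a, 1.68 ± 0.11 for Lin28b, 1.04 ± 0.14 for Trim71, 0.67 ± 0.11 for Arid3b and 0.60 ± 0.07 for Igf2bp1 (log2 difference ± SE). For Lin28a, Lin28b and Trim71 the mean was lower at E10.5 in both limbs and less so in HLB. Igf2bp1 was lower in FLB and hardly differed in HLB (-0.06 on the log2 scale), and Arid3b was lower in FLB alone. The remaining genes had terms from 0.08 ± 0.06 (Hmga2) to 0.32 ± 0.16 (Hmga1).

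The limb type difference of the ES-derived cells minus that of the early limb buds rests on values in view in the same way and is likewise a description. It was 2.40 ± 0.20 for Lin28a, 2.12 ± 0.12 for Trim71, 1.47 ± 0.09 for Arid3b, 1.19 ± 0.13 for Lin28b and 0.71 ± 0.07 for Igf2bp1. Hmga2 was the gene below 0, at -0.12 ± 0.06.

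The other E10.5 tissues were each compared with E10.5 FLB, whose 3 libraries the comparisons share. The values of these FLB libraries were in view when the genes were chosen. The limma p-values here likewise describe only the spread between libraries and are no independent support for a pattern. In the tail bud, where axial progenitors keep adding tissue to the trunk, 4 genes were higher (25.1% of all genes tested) and 2 lower (24.2%). Lin28a stood at 95.3, 121 and 129 CPM there, 11.6-fold above FLB (adjusted p = 0.000591) and beside the 108 and 91.0 CPM of E10.5 HLB, from which it did not separate. Arid3b stood at 168, 193 and 195 CPM, 2.53-fold above FLB (adjusted p = 1.58e-06), and had its highest level of any group in TB. Trim71 was 1.75-fold and Lin28b 1.52-fold higher. Igf2bp3 and Hmga2 were 1.16-fold and 1.45-fold lower.

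Cardiac tissue was lower than FLB in 6 of the 9 genes, but 38.3% of all genes tested were lower. Hmga2 stood at 314, 357 and 401 CPM, 3.67-fold lower (adjusted p = 2.26e-07) and the lowest level of any group. Lin28b was 2.75-fold and Trim71 2.41-fold lower, and the 3 Igf2bp genes 1.59-fold to 1.68-fold lower. Lin28a stood at 6.13, 12.2 and 6.69 CPM, overlapping FLB, and did not pass (adjusted p = 0.462).

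The branchial arch was the tissue closest to FLB. Lin28a (1.56-fold, adjusted p = 0.0162, groups overlapping) and Igf2bp3 (1.11-fold) were higher, as were 10.9% of all genes tested. Trim71 (1.37-fold) and Hmga2 (1.41-fold, adjusted p = 1.92e-09) were lower, as were 10.4%. Hmga2 alone passed with FLB replicate 3 left out, which puts the count of 4 at 1, and with FLB replicate 1 left out it was 2.

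**Figure D4:**
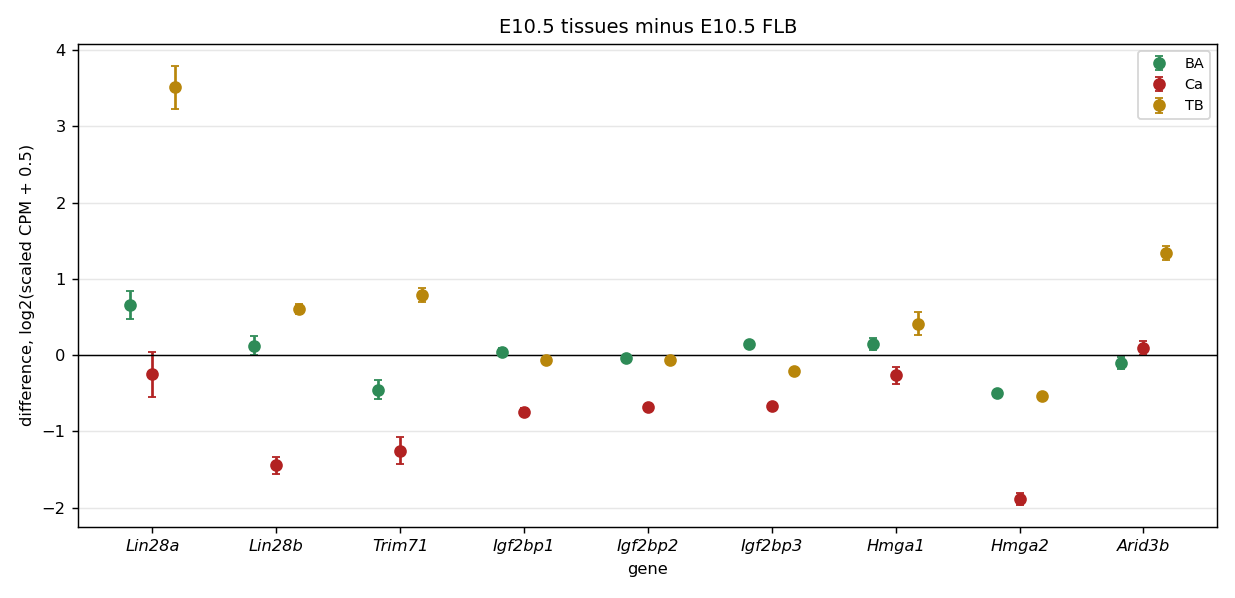
Difference of BA, Ca and TB from E10.5 FLB on log2(scaled CPM + 0.5), with its standard error from limma, for each gene. TB lies above FLB for Lin28a by 3.51 and for Arid3b by 1.34, and Ca lies below it for Hmga2 by 1.88.

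In the order of the 9 groups, early FLB was highest for 7 of the genes, E10.5 HLB for Hmga2 and TB for Arid3b. ES–FLB was lowest for Lin28a, Lin28b, Trim71, Igf2bp1, Hmga1 and Arid3b, and Ca for Igf2bp2, Igf2bp3 and Hmga2. The highest and lowest group means differed 128-fold for Lin28a, 19.1-fold for Lin28b, 15.4-fold for Trim71, 12.9-fold for Arid3b and 10.6-fold for Hmga1, and by 3.90-fold or less for the rest. Neighbours in this order often could not be separated. For Lin28a, TB and E10.5 HLB overlapped, as did ES–HLB and BA, BA and E10.5 FLB, and E10.5 FLB and Ca.

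Over the 9 group means of log2(CPM + 0.5), Lin28a correlated with Trim71 at r = 0.955 and with Lin28b at r = 0.942, while Hmga2 correlated with Arid3b at r = 0.189 and with Igf2bp2 at r = 0.884. These are descriptions over 9 groups, several of which share a stage or a limb type. Of 10161 genes with at least 16 CPM in some group, those most like Lin28a in shape were Smg5 (r = 0.993), Sars2, Parl, Arpc5l and Rnaseh1. Their range was far smaller: Smg5, a factor of nonsense-mediated decay, had means of 191 CPM in early FLB and 153 CPM in E10.5 FLB. Lin28b was most like Uck2 (r = 0.990), Eml3, Rfc5, Sars2 and Adh5. Igf2bp3 was most like Rps6ka6 (r = 0.987), Cdk9, Gnb1, Gle1 and Tstd2, and Hmga2 most like Gnai3 (r = 0.987), Wtap, Matr3, Cpsf6 and Ptbp2.

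The wider let-7 pathway was followed through lists of genes that were likewise chosen with earlier results known, and tested at an adjusted p of 0.001 between stages and against culture and of 0.05 elsewhere. Of 24 other let-7 target genes, 11 fell and 5 rose between stages in FLB, where 22.9% and 18.6% of all genes tested did, and their median was -0.05 against -0.02 over all genes. In HLB 4 of the 24 fell and 0 rose, where 2.75% and 1.85% of all genes tested did. Nr6a1, an orphan nuclear receptor of early embryos, was at 146, 146 and 156 CPM in early FLB and 8.56, 7.29 and 5.40 CPM at E10.5 (log2 difference -4.32 ± 0.13, adjusted p = 7.22e-10). In HLB it was at 37.3, 51.5 and 49.8 CPM early and 12.5 and 12.0 CPM at E10.5 (-1.86 ± 0.13, adjusted p = 1.81e-05). Unlike Lin28a it was lower in early HLB than in early FLB (-1.70 ± 0.12, adjusted p = 0.000127). Myc fell in both limbs, by 1.51 and by 1.37 on the log2 scale, and Irs2 and Thbs1 rose in FLB by 0.83 and 0.75.

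In culture 19 of the 24 targets were lower in ES–FLB than in early FLB and 4 higher, where 33.0% and 32.6% of all genes tested were. Mycn stood at 29.4 ± 1.87 CPM in ES–FLB against 212 ± 9.82 CPM in early FLB, and at 57.3 ± 6.49 CPM in ES–HLB against 208 ± 4.77 CPM in early HLB (SD, n = 3 each). Irs2, an insulin receptor substrate, was higher by 1.61 and 1.50 on the log2 scale. For ES–HLB 17 were lower and 5 higher, where 29.9% of all genes tested were, in each direction. The fall was not particular to let-7 targets. Of 16 cell cycle genes, 14 were lower and 0 higher in ES–FLB, and 15 lower and 1 higher in ES–HLB. Of 15 tested relatives of the set, 12 were lower and 1 higher in ES–FLB, and 13 and 1 in ES–HLB. Of 20 let-7 processing and silencing genes, 7 were lower and 10 higher in ES–FLB, and 7 and 8 in ES–HLB. Between the cultures Mycn was higher in ES–HLB by 0.95 ± 0.08 (adjusted p = 1.19e-10) and Ccnd1 lower by 0.57.

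The let-7 processing and silencing genes moved in both directions. Of 20 such genes, 7 rose and 4 fell between stages in FLB, where 18.6% of all genes tested rose and 22.9% fell. In HLB 1 of them rose, where 1.85% of all genes tested rose and 2.75% fell. Zcchc11, the terminal uridylyl transferase that LIN28A recruits to let-7 precursors, rose in both limbs, from 186 ± 3.47 to 275 ± 5.56 CPM in FLB (n = 3 each; adjusted p = 2.98e-09) and from 195 ± 14.9 (n = 3) to 267 ± 10.4 CPM (n = 2) in HLB (adjusted p = 0.000765). The export factor Xpo5 fell in FLB by 0.60 and Ago1, listed as Eif2c1, rose by 0.63. In both cultures the silencing scaffolds Tnrc6b and Tnrc6c were higher than in the early limb buds, Tnrc6c by 0.99 in ES–FLB and 1.15 in ES–HLB, and the Dicer partner Tarbp2 was lower by 1.02 and 1.05. The rows of the 12 let-7 and miR-98 precursor genes were at 0 in all limb bud libraries; such libraries of long polyadenylated RNA do not measure mature miRNAs. Their host or neighbour genes Huwe1 and Wdr82 were measured, while the other listed host in the table, 2810055G20Rik, was too low to be tested between stages. Wdr82 rose between stages in FLB by 0.27 (adjusted p = 3.61e-05), while Huwe1 stood lower at E10.5, at 576 ± 19.5 against 820 ± 108 CPM (SD, n = 3 each), and did not pass the threshold of 0.001. Against the early limb bud of the same type, Wdr82 was higher in ES–FLB by 0.38 and Huwe1 in ES–HLB by 0.68 on the log2 scale.

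Of 15 relatives of the set that were tested, 7 fell and 2 rose between stages in FLB, where 22.9% and 18.6% of all genes tested did. In HLB Csda was the 1 that passed, and it fell, where 2.75% of all genes tested fell and 1.85% rose. Csda (Ybx3), a cold shock protein like the LIN28 proteins, went from 355 ± 18.6 to 136 ± 4.71 CPM in FLB and from 321 ± 28.1 to 176 ± 8.88 CPM in HLB. Arid3a, the paralogue of Arid3b, stood at 165 ± 9.34 CPM in early FLB, at 91.9 ± 8.97 CPM in E10.5 FLB and at 24.6 ± 1.31 CPM in ES–FLB (SD, n = 3). The known clients of the IGF2BP proteins did not move together. Igf2, the growth factor whose mRNA gave the family its name, stood at 3587 ± 61.0 CPM in early FLB and 4599 ± 40.8 CPM in E10.5 FLB, but only 120 ± 10.4 CPM in ES–FLB. In ES–HLB it stood at 101 ± 6.15 CPM (SD, n = 3 in each of these groups). H19, the non-coding RNA next to it, was higher in culture by 0.94 and 1.01 than in the early limb buds.

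Proliferation genes moved with several of these contrasts, and their part in the results was not tested. The 16 genes summed to 5646 to 5687 CPM in early FLB, 4763 to 4975 CPM in E10.5 FLB, 5454 to 5519 CPM in early HLB and 5368 to 5437 CPM in E10.5 HLB. They summed to 3853 to 4017 CPM in the ES-derived cells. Between stages 10 of the 16 fell in FLB, where 22.9% of all genes tested fell, and 12 were higher in HLB than in FLB at E10.5, where 12.2% of all genes were. Between stages in HLB limma called 0 of the 16 at an adjusted p of 0.001, where 1.85% of all genes tested rose and 2.75% fell. Of the 16, 11 had an unadjusted limma p under 0.05, and 8 of those were lower at E10.5. The share of all genes under that unadjusted p is not given here, so nothing is concluded from that count.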

How the data were processed

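RNA-seq libraries (TruSeq Stranded mRNA LT) were made from total RNA of whole embryonic tissue and of sorted ES-derived cells. The deposited values were CPM (read counts per gene relative to a library total of 1000000), made by the authors. The submitters' processing notes name FastQC 0.11.5, HISAT2 2.0.4, Cuffdiff, Cufflinks 2.1.1, edgeR 3.16.2 and mm10, and use of strand in counting is not given in the sources used here. All 27 columns matched a sample and 0 belonged to others.

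Between 95.7% and 99.5% of low values were whole multiples of the smallest step, within 0.1, which gave the estimated depth; no count test was run. CPM were rescaled between libraries by a trimmed mean of log ratios (30% of ratios and 5% of intensities trimmed). Differences were fitted on log2(scaled CPM + 0.5) with limma 3.58.1 (trend and robust estimation, R 4.3.3), over genes with at least 1 CPM in at least 3 compared libraries, and p-values were adjusted over all genes tested. The pseudocount understates folds of low genes. Scripts were tested on simulated data. Within-group r was 0.988 to 0.997.

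The 9 genes and the gene lists were chosen with earlier results of these data known. Named were the 9 genes, at most 2 called genes per list, direction and comparison with at least 16 CPM, and the 5 genes most alike to each of 4. Same-numbered replicates did not deviate together (r between -0.089 and 0.126), so no pairing was used. Alternatives were the scaling, pseudocount, filter, threshold, model, block, the truncated library and each library left out. One item of the table is not reported here.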

Additional observations from a re-analysis of the deposited data

Results flagged for a closer look

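Most of the following differences between groups in the same contrast were picked out by limma's test of the difference between limb types. Hmga1, Igf2bp2 and Hmga2 were not picked out for the stage change, nor Hmga1 and Hmga2 for the difference in culture. All these differences are made of values by which the genes were chosen, so they are given as values and not as tests.

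On the log2 scale, the stage change in HLB minus that in FLB was 3.51 for Lin28a, 1.68 for Lin28b, 1.04 for Trim71, 0.67 for Arid3b and 0.60 for Igf2bp1. It was 0.32 for Hmga1, 0.22 for Igf2bp3, 0.15 for Igf2bp2 and 0.08 for Hmga2. The E10.5 hindlimb bud group had 2 libraries, and Arid3b was not lower at E10.5 in HLB.

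The hindlimb minus forelimb difference in ES-derived mesenchyme exceeded that of the early limb buds by 2.40 for Lin28a, 2.12 for Trim71, 1.47 for Arid3b and 1.19 for Lin28b. It did so by 0.97 for Hmga1, 0.71 for Igf2bp1, 0.28 for Igf2bp3 and 0.24 for Igf2bp2. For Hmga2 the term was -0.12.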

How the results depend on the processing

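No called difference changed direction under any alternative run. For E10.5 HLB against E10.5 FLB, the count of 8 genes was 2 with limma without trend and robust estimation and 4 at a threshold of 0.001; leaving out 1 library gave 5 to 7. For BA against E10.5 FLB the count of 4 was 1 under both of those alternatives and 1 to 5 with 1 library left out. Between stages in HLB, the count of 1 ranged from 1 to 2, being 2 without E10.5 HLB replicate 1. With 1 library left out, the remaining counts ranged from 4 to 4 for the stages in FLB, 6 to 6 for ES–FLB against either limb bud stage and for ES–HLB against early HLB, 4 to 5 for ES–HLB against E10.5 HLB, 7 to 8 for ES–HLB against ES–FLB, 3 to 3 for the early limb buds, 6 to 8 for Ca and 6 to 7 for TB. The cause was not tested.

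With the replicate number as a block, the count went from 6 to 7 in Ca, 8 to 9 for E10.5 HLB against E10.5 FLB, 5 to 4 for ES–HLB against E10.5 HLB and 6 to 7 in TB, and did not move in the other comparisons between groups. CPM as deposited shifted the median of all genes by 0.16 between stages in FLB and by 0.06 in HLB, which is as large as the stage difference of Igf2bp1 in HLB. The shift was 0.22 for ES–FLB and 0.16 for ES–HLB against early limb buds, 0.10 for ES–HLB against E10.5 HLB and -0.12 for Ca.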

Other observations

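The E10.5 HLB library that was left out still held values for 6 of the 9 genes, on scaled CPM of the chromosomes it covers. Lin28a stood there at 123 CPM, Lin28b at 207, Igf2bp1 at 492, Igf2bp2 at 412, Hmga1 at 152 and Hmga2 at 1362 CPM. The Lin28a value lay above the 108 and 91.0 CPM of the libraries used, and the Lin28b value between their 212 and 190 CPM.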
